A study of Mus musculus with 30 samples.

Results

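The 10 troponin and tropomyosin genes described here are the rows of the deposited expression table named TNNT1, TNNT2, TNNT3, TNNI1, TNNI2, TNNC1, TNNC2, TPM1, TPM2 and TPM3, out of 21073 genes. All 10 names matched a row, each row carries its own Entrez gene identifier, and none of the 10 genes was at 0 in any mouse. The table covers 30 female SJL/J mice whose extensor digitorum longus (EDL), a fast hind limb muscle, was profiled by RNA-Seq. The EAE groups were immunized with a proteolipid protein peptide (PLP) emulsified in complete Freund's adjuvant (CFA), which causes experimental autoimmune encephalomyelitis, a model of multiple sclerosis. The OVA groups received ovalbumin in the same adjuvant, and the Ctrl groups were not immunized. Muscles were taken on day 14, at the peak of disease, or on day 40, in chronic remission, from 5 mice per group and day, and no mouse was sampled on both days. The labels call all mice wild type and of strain SJL, and the ages of the mice are not given in the sources used here. As background, SJL/J mice lack normal dysferlin, a membrane repair protein of muscle fibres, and this is shared by all 6 groups. The labels do not say whether the libraries of a day were made together, nor do they tie mice of the same number across groups.

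In striated muscle the thin filament is built from actin, tropomyosin and troponin. Tropomyosin lies along the actin filament and covers the sites at which myosin binds. Troponin has 3 subunits: troponin C binds calcium, troponin I holds the filament in the blocked state, and troponin T anchors the complex to tropomyosin. Calcium released during excitation binds troponin C, troponin I lets go of actin, and tropomyosin moves aside. Fast, slow and cardiac muscle use different genes for each subunit. TNNC2, TNNI2 and TNNT3 encode the fast skeletal forms. TNNI1 and TNNT1 encode the slow skeletal forms, TNNC1 encodes the form shared by slow and cardiac muscle, and TNNT2 encodes the cardiac form of troponin T, which embryonic skeletal muscle also makes. Of the tropomyosins, TPM1 is the main form of fast fibres, TPM2 is made in fast and slow fibres, and TPM3 is the main form of slow fibres. All 3 tropomyosin genes also give non-muscle transcripts, and the gene values used here add these to the muscle transcripts.

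Gene positions follow the RefSeq annotation of GRCm38.p6, the assembly behind the mm10 build to which the reads were aligned. Of the fast subunits, TNNC2 (Entrez 21925) lies at chr2:164777161-164779734, TNNI2 (21953) at chr7:142441816-142444410 and TNNT3 (21957) at chr7:142498771-142516213. Of the slow and cardiac subunits, TNNC1 (21924) lies at chr14:31208312-31211729, TNNI1 (21952) at chr1:135783033-135810989, TNNT1 (21955) at chr7:4504569-4515975 and TNNT2 (21956) at chr1:135836315-135852268. TPM1 (22003) lies at chr9:67022590-67049672, TPM2 (22004) at chr4:43513726-43523583 and TPM3 (59069) at chr3:90072651-90100902. The gene for a troponin I and a gene for a troponin T thus lie close together on chromosome 1 (TNNI1 and TNNT2) and on chromosome 7 (TNNI2 and TNNT3), and the members' spans do not overlap each other.

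RefSeq promoter windows, 250 bases before to 50 bases after a start site, were at hand for 8 of the 10 genes, all but TNNT3 and TNNI2, in 11 windows. Both strands were searched for an E-box (CANNTG, bound by MyoD and its relatives), an MCAT element (CATTCC, bound by TEAD factors), a MEF2 site and a CArG box (bound by SRF). An E-box match was found in a window of all 8 genes, and 72.3% of 32841 windows of the same length in the table hold one. An MCAT match was found in 3 of the 11 windows, against 14.7% of all windows. No window held a match to a MEF2 site (3.19% of all windows) or a CArG box (1.63% of all windows). The 3 windows with an MCAT match are given here with that of TNNC2, because they belong to members whose levels changed on day 14 and include the only member that rose. They read 5′ to 3′ on the strand of the gene, and capitals mark the MCAT match, which does not overlap an E-box in any of the 3. A match is a description of the letters and was not tied to binding. The window of TNNC1 is chr14:31208062-31208361 on the plus strand, and its match starts 58 bases before the start site. That of TNNT2 is chr1:135836084-135836383 on the plus strand, with a match 27 bases before the start site. The other window of TNNT2, chr1:135836739-135837038 on the plus strand, has no MCAT match and is not printed. That of TPM1 is chr9:67049164-67049463 on the minus strand, with a match 56 bases before the start site. That of TNNC2 is chr2:164779685-164779984 on the minus strand and has no MCAT match. The windows of TPM2 and TPM3, whose levels also changed on day 14, hold no MCAT match either.
TNNC1: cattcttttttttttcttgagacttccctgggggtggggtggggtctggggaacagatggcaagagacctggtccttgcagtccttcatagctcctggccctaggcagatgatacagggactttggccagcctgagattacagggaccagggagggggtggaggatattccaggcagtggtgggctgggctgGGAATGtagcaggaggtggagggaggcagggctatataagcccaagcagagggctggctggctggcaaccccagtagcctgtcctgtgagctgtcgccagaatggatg
TNNT2: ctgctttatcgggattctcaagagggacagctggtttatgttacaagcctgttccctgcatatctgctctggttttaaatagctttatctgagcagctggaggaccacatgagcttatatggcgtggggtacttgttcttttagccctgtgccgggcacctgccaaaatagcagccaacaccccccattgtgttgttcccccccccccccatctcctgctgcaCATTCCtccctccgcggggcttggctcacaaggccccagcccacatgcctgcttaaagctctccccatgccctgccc
TPM1: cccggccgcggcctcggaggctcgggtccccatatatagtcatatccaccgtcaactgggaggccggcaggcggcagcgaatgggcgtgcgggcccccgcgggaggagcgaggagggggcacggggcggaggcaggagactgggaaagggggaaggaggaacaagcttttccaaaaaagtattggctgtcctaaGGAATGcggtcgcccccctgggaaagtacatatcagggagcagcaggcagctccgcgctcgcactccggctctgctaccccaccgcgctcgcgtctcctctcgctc
TNNC2: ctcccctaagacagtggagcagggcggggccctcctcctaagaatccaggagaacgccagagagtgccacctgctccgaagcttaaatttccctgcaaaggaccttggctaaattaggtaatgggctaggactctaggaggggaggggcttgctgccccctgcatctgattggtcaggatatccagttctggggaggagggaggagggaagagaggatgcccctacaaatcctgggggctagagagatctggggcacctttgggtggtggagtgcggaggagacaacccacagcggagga

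Levels are given in RPKM, read counts scaled to exon length and to the size of the library, which allows genes of different length to be compared. In unimmunized mice on day 14 the fast isoforms stood far above the slow and cardiac ones. TNNT3 was the gene of rank 2 in the whole table at 17635 ± 3815 RPKM (SD, n = 5), followed by TNNC2 at 16635 ± 5436 (rank 3) and TNNI2 at 12694 ± 3350.2 (rank 6). These 3 neighbours in the order differed by less than their spread. TPM2 at 5180.2 ± 723 and TPM1 at 4273 ± 780.2 came next, below every value of the fast troponins, and their ranges overlapped. TNNC1 at 486 ± 171 and TNNT1 at 478 ± 123 were on the same level. TNNI1 at 192 ± 54.1 lay below every mouse of TNNT1, TPM3 at 105 ± 14.5 below every mouse of TNNI1, and TNNT2 at 12.1 ± 3.42 (rank 3933) below every mouse of TPM3. Low genes rest on fewer reads: the libraries held an estimated 18.2M to 31.7M assigned reads (M, mega; median 21.7M).

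**Figure D1:**
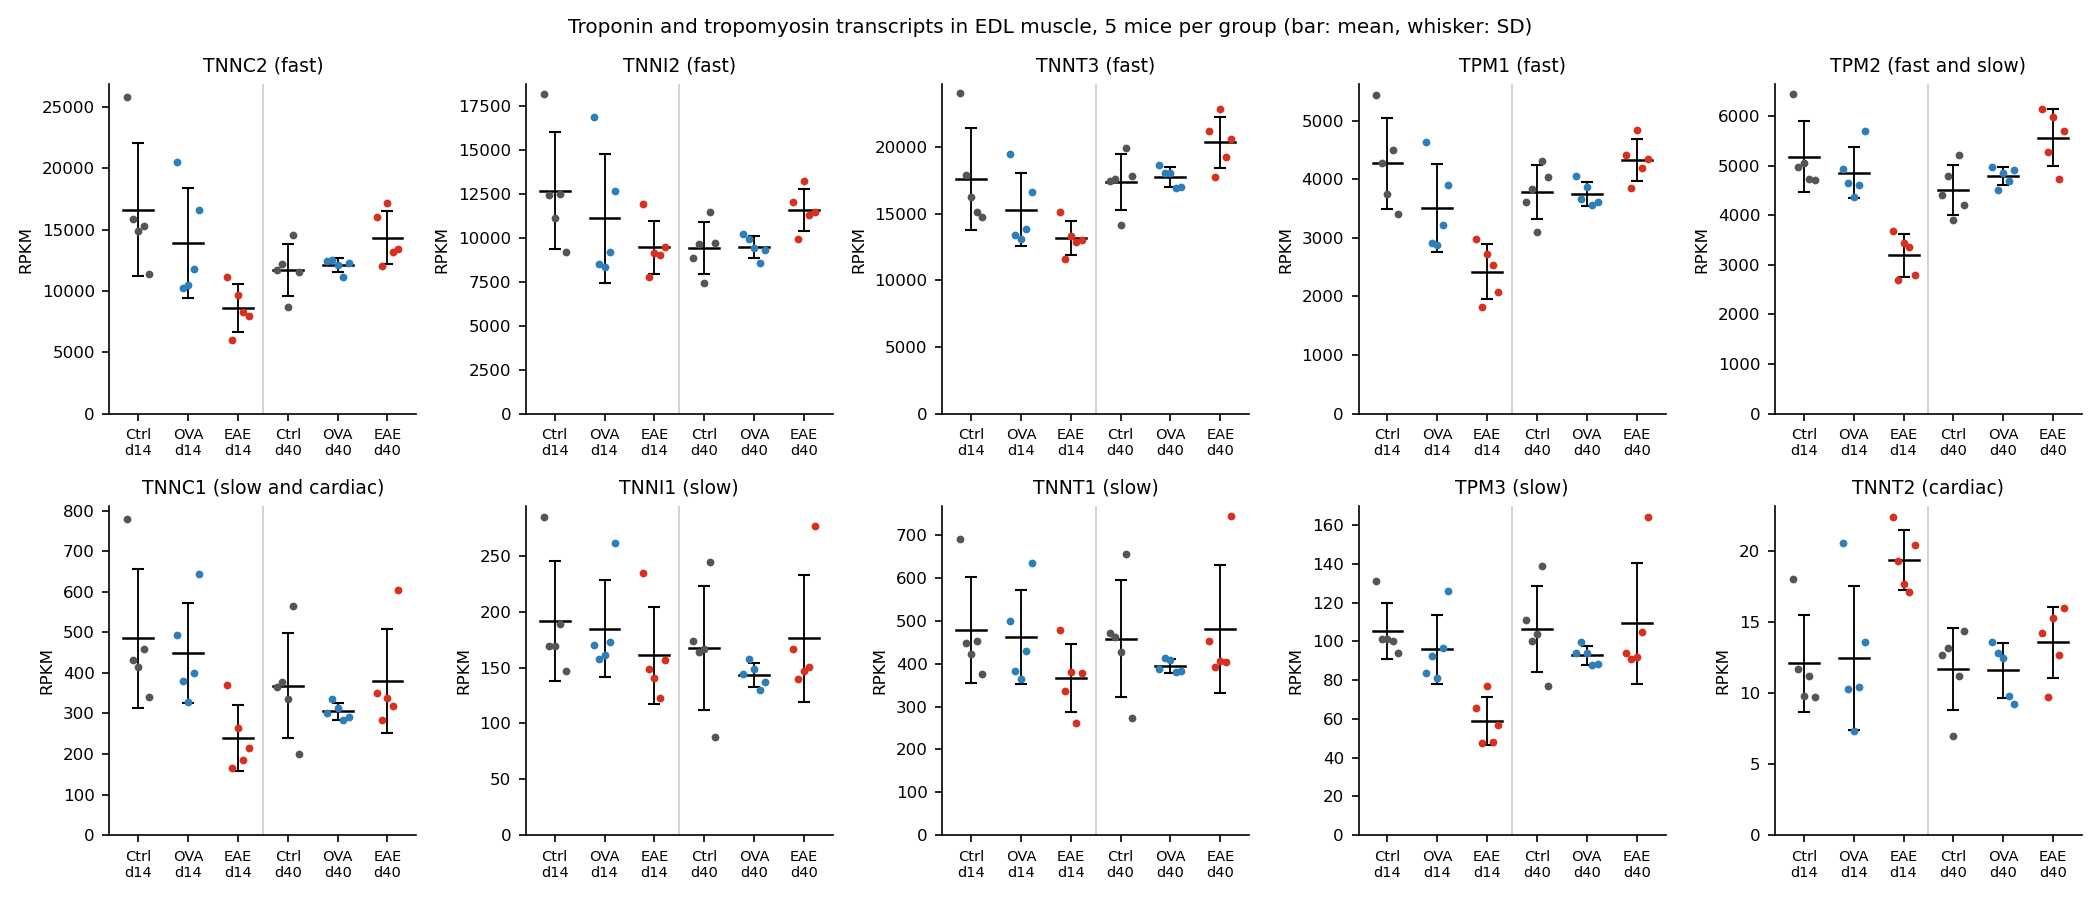
RPKM of the 10 genes in each of the 30 mice (y axes start at 0), by group on the x axis, d14 and d40 being days 14 and 40; points are mice, bars the group mean and whiskers the SD of 5 mice. On day 14 the EAE mice lie below the Ctrl mice for TNNC2, TPM1, TPM2 and TPM3, and TNNT2 is at 17.1 to 22.4 RPKM in EAE mice against 9.74 to 18.0 in Ctrl mice.

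At the peak of disease, 5 of the 10 genes fell and 1 rose against unimmunized mice. Both troponin C genes and all 3 tropomyosins were lower, by 1.63-fold (TPM2) to 2.03-fold (TNNC1), and the cardiac troponin T gene TNNT2 was 1.63-fold higher. The fast and slow genes of troponin I and troponin T did not pass the test. A gene was called changed at a fold change above 1.5 and a Benjamini-Hochberg adjusted p below 0.05 over all genes tested by limma on log2(RPKM + 0.1). By this rule 11.8% of all genes tested were called lower in EAE than in Ctrl mice on day 14, and 14.6% higher, against 5 and 1 of the 10 members. The median log2 fold change was -0.55 over the members and 0.11 over all genes tested. Under quantile normalization, which forces all libraries to 1 distribution, TNNC2 and TPM2 lost the call and 4 members were called. In whole muscle, fewer fibres of a type and less RNA per fibre cannot be told apart.

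Of the calcium-binding subunits, the fast form TNNC2 was at 25835, 15829.6, 14883, 15289 and 11341 RPKM in the 5 Ctrl mice on day 14 and at 11149, 5971, 9642, 8253 and 7985 in the 5 EAE mice. Every EAE mouse was below every Ctrl mouse, if narrowly, and Ctrl replicate 1 stood far above the other Ctrl mice. The log2 fold change was -0.93 ± 0.24 (SE; adjusted p = 0.00554, limma), a 1.90-fold lower level. The slow and cardiac form TNNC1 was at 781, 432, 414, 459 and 341 RPKM in Ctrl mice and at 369.8, 166, 264, 184 and 215 in EAE mice. The groups overlapped by 1 mouse on each side, EAE replicate 1 and Ctrl replicate 5. TNNC1 had the largest change of the 10 genes, with a log2 fold change of -1.02 ± 0.25 (adjusted p = 0.00336, limma), a 2.03-fold lower level.

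The inhibitory subunits gave no call. The fast form TNNI2 was at 18198, 12438, 11141, 12477 and 9218 RPKM in Ctrl mice and at 11909.7, 7772, 9162, 9025 and 9510.0 in EAE mice, so the groups overlapped. Its log2 fold change was -0.40 ± 0.22 (adjusted p = 0.135, limma), and 0.05 under quantile normalization. The slow form TNNI1 ranged from 147 to 285 RPKM in Ctrl and from 123 to 235 in EAE mice, with a log2 fold change of -0.25 ± 0.20 (adjusted p = 0.314, limma).

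Among the tropomyosin-binding subunits only TNNT2, the cardiac form, was called. TNNT2 was at 18.0, 11.7, 9.80, 11.2 and 9.74 RPKM in Ctrl mice and at 22.4, 19.3, 17.7, 17.1 and 20.4 in EAE mice. Ctrl replicate 1 was within the range of the EAE mice, and the other 4 Ctrl mice were below it. The log2 fold change was 0.71 ± 0.22 (adjusted p = 0.0159, limma). The fast form TNNT3 ranged from 14725 to 24086 RPKM in Ctrl and from 11595 to 15114 in EAE mice, with an overlap and a log2 fold change of -0.40 ± 0.16 (adjusted p = 0.0505, limma), which was 0.03 under quantile normalization. The slow form TNNT1 ranged from 376 to 692 RPKM in Ctrl and from 261 to 478 in EAE mice, with a log2 fold change of -0.38 ± 0.19 (adjusted p = 0.113, limma).

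The tropomyosins separated the groups most clearly. TPM1 was at 5440.3, 4275, 3745, 4495 and 3410.3 RPKM in Ctrl mice and at 2982, 1815, 2717, 2532 and 2079 in EAE mice, a log2 fold change of -0.82 ± 0.18 (adjusted p = 0.00159, limma). TPM2 was at 6446, 4969.7, 5050.4, 4733 and 4702 RPKM in Ctrl mice and at 3672, 2697, 3429.7, 3356 and 2785 in EAE mice, a log2 fold change of -0.70 ± 0.13 (adjusted p = 5.95e-04, limma). TPM3 was at 131, 101, 101, 100.3 and 94.0 RPKM in Ctrl mice and at 65.6, 47.3, 77.0, 48.0 and 56.8 in EAE mice, a log2 fold change of -0.85 ± 0.15 (adjusted p = 4.11e-04, limma). In all 3 genes, and in TNNC2, no EAE mouse reached the level of any Ctrl mouse. This held for 4 of the 10 members, and 11.0% of all genes tested had every EAE mouse below every Ctrl mouse.

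The comparison with OVA mice, which received the adjuvant without the myelin peptide, asks whether the differences on day 14 also appear beside a general immune activation. Against OVA mice 4 members fell and 1 rose, where 9.28% of all genes tested were called lower and 11.0% higher. TNNC1 fell by 0.93 ± 0.25 on the log2 scale (adjusted p = 0.00765, limma), TPM3 by 0.71 ± 0.15 (adjusted p = 0.00197), TNNC2 by 0.67 ± 0.24 (adjusted p = 0.0383) and TPM2 by 0.61 ± 0.13 (adjusted p = 0.00202). TNNT2 rose by 0.71 ± 0.22 (adjusted p = 0.0189, limma). TPM1 had a log2 fold change of -0.53 ± 0.18 (adjusted p = 0.0263, limma), which is short of 1.5-fold, so it was not called. Under quantile normalization 3 members were called against OVA mice, without TNNC2 and TPM2.

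TNNC2 was at 20514, 10235, 10483, 11817 and 16588 RPKM in OVA mice on day 14, so that the groups overlapped, and OVA replicates 1 and 5 were the high mice. TPM2 was at 4920.1, 4656, 4373, 4616 and 5701 RPKM and TPM3 at 83.6, 92.3, 81.1, 96.5 and 126 RPKM in OVA mice, above every EAE mouse. These 2 were the members without overlap against OVA mice, a pattern seen in 8.20% of all genes tested. TNNC1 was at 494, 379, 329, 401 and 644 RPKM in OVA mice, and EAE replicate 1 at 369.8 was within their range. TNNT2 was at 20.6, 10.3, 7.36, 10.4 and 13.6 RPKM in OVA mice, and replicate 1 alone was within the EAE range. The count of 5 called members went down to 3, without TNNC2 and TPM2, when OVA replicate 5, EAE replicate 2 or EAE replicate 5 was left out, and TNNT2 was no longer called without OVA replicate 3. TNNC2 also lost its call without OVA replicate 1 or EAE replicate 4.

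Between OVA and Ctrl mice on day 14 none of the 10 members was called (limma; log2 fold changes of -0.29 to 0.00, 0 members at an unadjusted p below 0.05). In this comparison 0.142% of all genes tested were called, 12 of 8471, and 821 had an unadjusted p below 0.05. The 3 comparisons of a day share mice: the Ctrl, OVA and EAE values above each enter 2 of them.

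**Figure D2:**
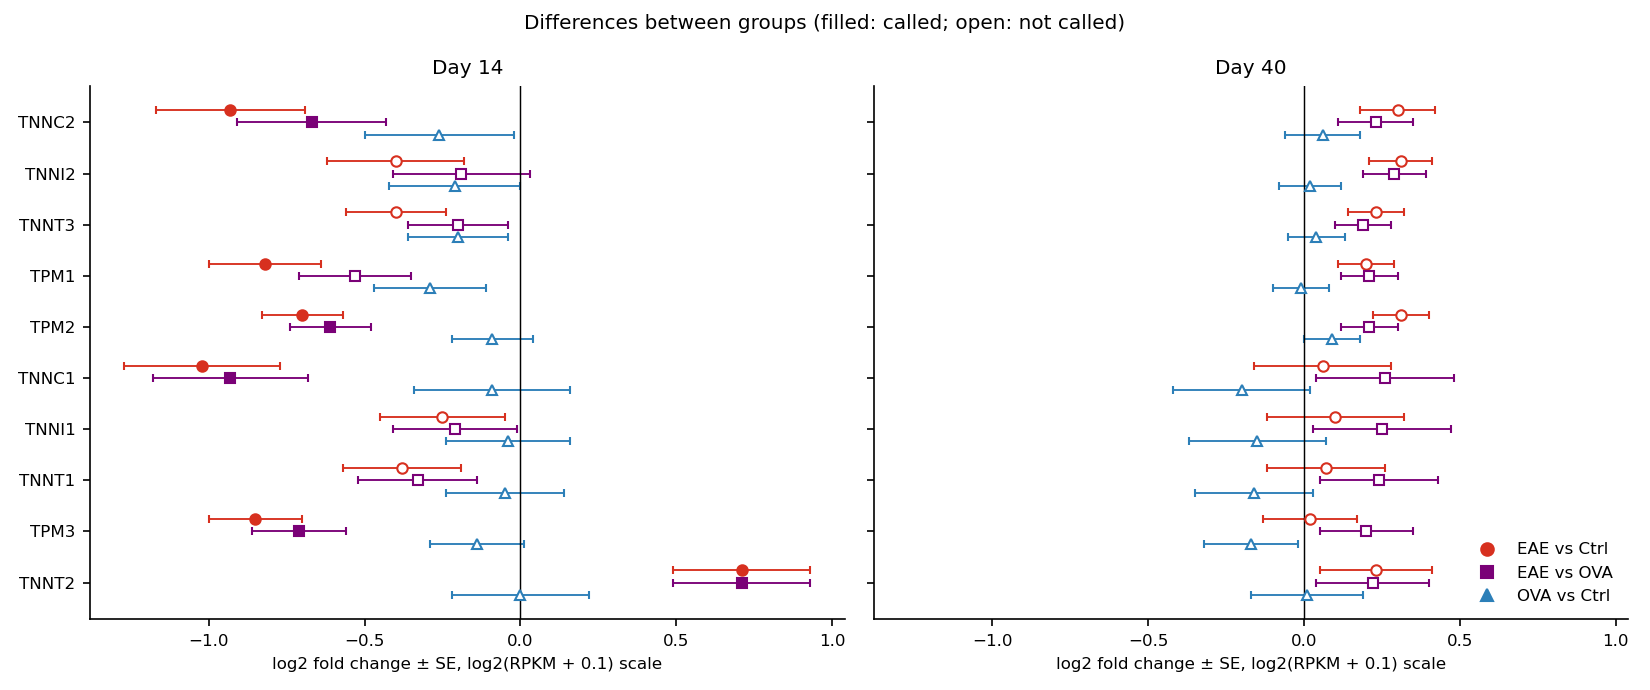
Log2 fold change ± SE (x axis, on the scale of log2(RPKM + 0.1)) of the 10 genes (y axis) on day 14 and day 40 in EAE vs Ctrl (circles), EAE vs OVA (squares) and OVA vs Ctrl (triangles); filled symbols are called and open ones are not. On day 14, 6 members are called against Ctrl and 5 against OVA, and on day 40 none is called, with values from -0.20 to 0.31.

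On day 40 no member was called in any comparison, and the log2 fold changes of EAE against Ctrl ran from 0.02 (TPM3) to 0.31 (TPM2 and TNNI2). All 10 were above 0, although those of TNNT1, TNNI1, TNNC1, TPM1 and TPM3 were below 0 under quantile normalization, and 5 members had an unadjusted p below 0.05 against 2423 of 8691 genes. The smallest adjusted p was 0.0612, for TPM2 (limma). TPM2 was at 4409.9, 4788, 3901, 5206 and 4214 RPKM in Ctrl mice and at 6134, 5271, 5983, 4730.4 and 5693 in EAE mice on day 40. TNNC2 was at 11662, 12204, 8655, 14538 and 11504 RPKM in Ctrl mice and at 16020.2, 12045, 17139.8, 13129.6 and 13399.5 in EAE mice, which overlapped as well. TNNT2 was at 12.7, 13.2, 6.94, 11.2 and 14.4 RPKM in Ctrl mice and at 14.2, 9.69, 15.3, 12.7 and 16.0 in EAE mice, below every EAE mouse of day 14. Of all genes tested 0.460% were called between EAE and Ctrl mice on day 40.

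Against OVA mice on day 40 the 10 members had log2 fold changes of 0.19 to 0.29, with adjusted p of 0.178 and above (limma) and 4 members at an unadjusted p below 0.05, against 1500 of 8598 genes. Of all genes tested 0.209% were called. Between OVA and Ctrl mice on day 40 the members ran from -0.20 to 0.09, with no member at an unadjusted p below 0.05, and 0% of all genes tested were called (0 of 8706 by limma, with 272 at an unadjusted p below 0.05). The OVA mice of day 40 had the lowest coefficient of variation of the 6 groups in 9 of the 10 genes, from 3.89% (TPM2) to 7.67% (TNNI1), the exception being TNNT2 at 16.6%.

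An interaction term in 1 model of all 30 mice asked whether the effect of EAE was the same on both days. The EAE vs Ctrl effect was higher on day 40 than on day 14 for 7 members, and 16.5% of all genes tested had such a positive difference past the test. Positive differences were 33.9% of all differences past the test, against 46.0% under median-of-ratios scaling and 48.5% under quantile normalization, and the median over all genes tested was -0.15, -0.02 and -0.01 in turn. The difference in log2 fold change was 1.23 ± 0.28 for TNNC2 (adjusted p = 9.28e-04, limma), 1.08 ± 0.35 for TNNC1 (adjusted p = 0.0117), 1.02 ± 0.20 for TPM1 (adjusted p = 2.03e-04), 1.01 ± 0.15 for TPM2 (adjusted p = 1.14e-05) and 0.88 ± 0.22 for TPM3 (adjusted p = 0.00252). TNNI2 at 0.71 ± 0.25 (adjusted p = 0.0191, limma) and TNNT3 at 0.63 ± 0.18 (adjusted p = 0.00647), which were not called on either day, also passed, but not with no filter on low values or under quantile normalization. TNNT2 changed the other way, by -0.47 ± 0.30, without passing (adjusted p = 0.193, limma), so its rise on day 14 was not shown to differ from day 40. Against OVA mice, 5 members passed with a positive difference, all of troponin C and tropomyosin, where 11.1% of all genes tested did. For TNNI2 at 0.47 ± 0.24 (adjusted p = 0.134, limma) and TNNT3 at 0.40 ± 0.18 (adjusted p = 0.0934) the effect against OVA mice was not shown to differ between the days.

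The balance of slow and fast forms was compared as a ratio within each mouse, which does not depend on the scaling of the library. TNNI1 made up 1.49% ± 0.0870 (SD, n = 5) of the summed TNNI1 and TNNI2 in Ctrl mice on day 14 and 1.66% ± 0.249 in EAE mice. TNNT1 made up 2.63% ± 0.204 of TNNT1 and TNNT3 in Ctrl mice and 2.69% ± 0.412 in EAE mice. TNNC1 made up 2.83% ± 0.133 of TNNC1 and TNNC2 in Ctrl mice and 2.68% ± 0.367 in EAE mice. None of the 18 comparisons of a slow to fast ratio passed, the smallest two-sided exact permutation p being 0.127 and the adjusted p 0.769 to 0.976 over the 18. With 5 mice against 5 this test can go down to an exact p of 0.00794, which none of the 18 reached. A single ratio at this floor would still not pass after adjustment over the 18, unless others reached it too. The adjusted p therefore cannot decide whether any single ratio changed. The smallest p belonged to TNNC1 to TNNC2 in EAE vs OVA mice on day 14, with a difference in log2 ratio of -0.26 beside an SD of 0.20 in EAE and 0.27 in OVA mice.

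**Figure D3:**
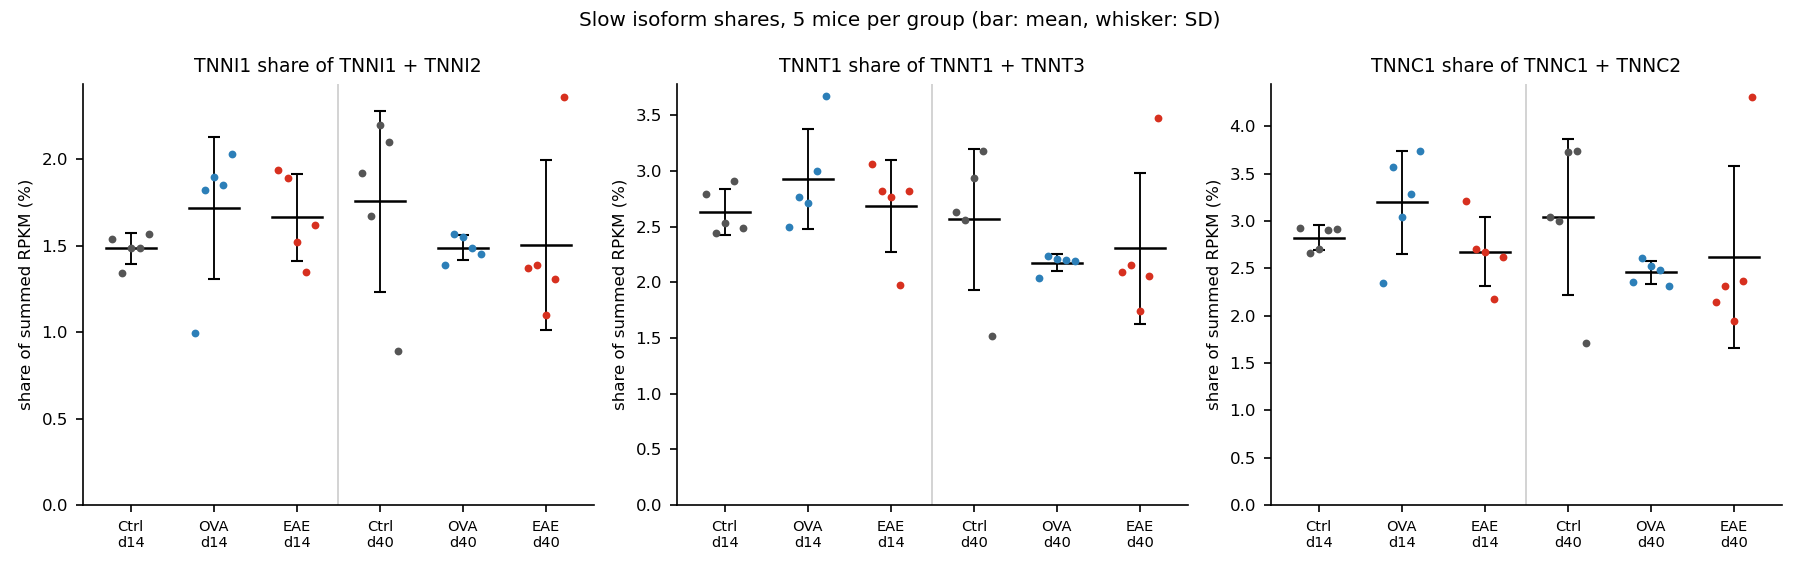
Share of the slow form in the summed RPKM of the slow and fast forms (y axes in percent, from 0) for troponin I, T and C in each mouse by group (x axis); bars are means and whiskers SDs of 5 mice. The groups overlap in all 3 pairs, with group means of 1.49% to 1.76% for TNNI1, and EAE replicate 5 of day 40 lies above the other 4 mice of its group at 2.36% (TNNI1), 3.48% (TNNT1) and 4.31% (TNNC1).

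Mice differed in the slow forms as a set. In the EAE group of day 40, replicate 5 was the highest of its group for TNNT1, TNNT2, TNNI1, TNNC1 and TPM3, with TNNT1 at 744 RPKM against 393 to 452 in the other 4 mice. In the Ctrl group of day 40, replicate 5 was the lowest for TNNT1, TNNI1, TNNC1 and TPM3. In the OVA group of day 14, replicate 5 was the highest for TNNT1, TNNI1, TNNC1, TPM2 and TPM3. Ctrl replicate 1 of day 14 was the highest of its group in all 10 genes, and replicate 5 the lowest in all 10. Replicate 1 of day 14 was also the highest in 9 genes in the EAE group and in 5 genes in the OVA group. Without Ctrl replicate 1 the same number of members was called against EAE mice on day 14, 6 of 10.

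Across subunits the EAE mice of day 14 had less troponin C transcript for their troponin I transcript than any other mouse. These ratios were chosen after the values were seen and are given as a description with no test. TNNC2 to TNNI2 was 0.936, 0.768, 1.05, 0.915 and 0.840 in the EAE mice of day 14 and 1.16 to 1.42 in the other 25 mice. TNNC1 to TNNI1 was 1.57, 1.11, 1.87, 1.49 and 1.37 in the EAE mice of day 14 and 2.00 to 2.90 in the other 25. In these ratios of troponin C to troponin I the 5 mice did not overlap the other 25, but ratios to TNNT3 did overlap between groups. TNNC2 to TNNT3 was 0.515 to 0.738 in the EAE mice of day 14, below the 0.764 to 1.07 of the Ctrl and OVA mice of that day, but overlapping the 0.612 to 0.728 of Ctrl, 0.657 to 0.721 of OVA and 0.649 to 0.755 of EAE mice on day 40. TPM2 to TNNT3 was 0.214 to 0.260 in the EAE mice of day 14, overlapping the 0.253 to 0.347 of OVA mice on day 14 and the 0.237 to 0.276 of Ctrl mice on day 40. TNNT2 made up 0.129% to 0.161% of the summed troponin T transcripts in the EAE mice of day 14 and at most 0.103% in any other mouse. Within the tropomyosins the shares did not separate the groups: TPM2 made up 54.3% ± 2.71 of the sum in Ctrl and 56.4% ± 1.76 in EAE mice on day 14, and the sum itself was 9559 ± 1450.2 and 5672 ± 905 RPKM.

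**Figure D4:**
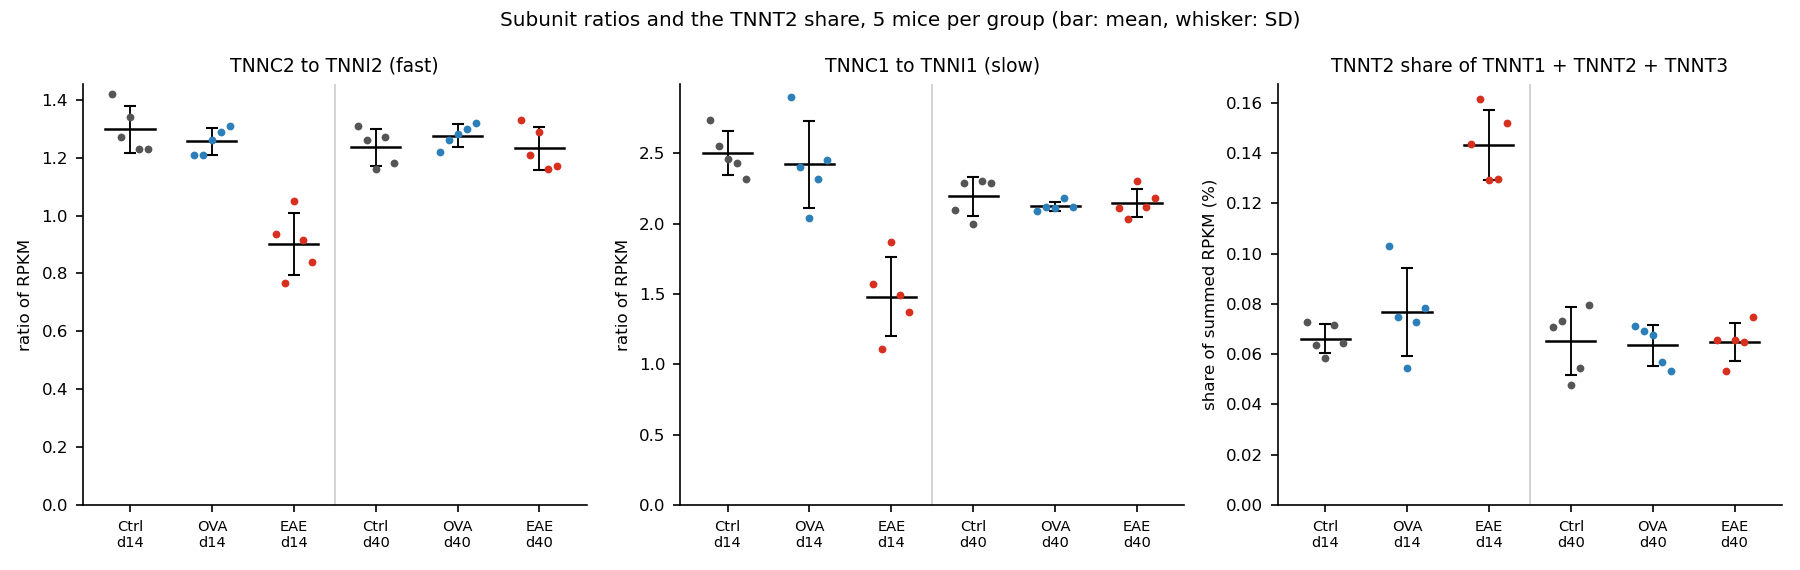
Ratio of TNNC2 to TNNI2 and of TNNC1 to TNNI1, and share of TNNT2 in the summed troponin T transcripts in percent (y axes from 0), for each mouse by group (x axis); bars are means and whiskers SDs of 5 mice. The 5 EAE mice of day 14 lie at 0.768 to 1.05, 1.11 to 1.87 and 0.129% to 0.161%, apart from the other 25 mice in each panel.

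Other genes of the sarcomere were read from lists compiled from textbook knowledge, with earlier results of these data known. Of 12 tested partners of the thin filament, 3 rose and 2 fell in EAE against Ctrl mice on day 14, with a median log2 fold change of 0.15 beside 0.11 over all genes. Of all genes tested, 14.6% were called higher and 11.8% lower against Ctrl, and 11.0% and 9.28% against OVA. The same shares stand beside each list below. ACTC1, the cardiac actin, fell by 2.61 ± 0.26 on the log2 scale (adjusted p = 3.77e-06, limma). LMOD2, a leiomodin that extends thin filaments at their pointed ends, rose by 1.87 ± 0.20 (adjusted p = 4.84e-06), CFL2, the muscle cofilin, by 1.23 ± 0.14 (adjusted p = 6.25e-06) and NEB, the giant thin filament protein nebulin, by 1.12 ± 0.32 (adjusted p = 0.0105). ACTA1, the skeletal actin on which the troponins and tropomyosins sit, had a log2 fold change of -0.24 ± 0.11 (adjusted p = 0.0817, limma), with 19693 RPKM in Ctrl and 16698 in EAE mice. TPM4, a tropomyosin gene used mainly by non-muscle cells, fell from 27.7 ± 4.69 to 17.3 ± 3.93 RPKM (adjusted p = 0.00279, limma). TNNI3, the cardiac troponin I, was at 0.186 to 1.66 RPKM over all 30 mice and was not tested. Against OVA mice 3 partners rose, LMOD2, CFL2 and KLHL40, and 2 fell, ACTC1 and TPM4.

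Of the 13 other fast fibre genes, 5 fell and 0 rose in EAE mice on day 14, both against Ctrl and against OVA mice (limma). Of all genes tested, 11.8% were called lower against Ctrl and 9.28% against OVA. PVALB, the calcium buffer parvalbumin, fell by 1.47 ± 0.27 against Ctrl (adjusted p = 4.31e-04), MYLK2, the skeletal myosin light chain kinase, by 1.29 ± 0.17 (adjusted p = 3.92e-05) and CASQ1, the fast calsequestrin, by 1.24 ± 0.18 (adjusted p = 8.76e-05). MYH4, the fastest myosin heavy chain, was at 5706 RPKM in Ctrl and 5819.7 in EAE mice (log2 fold change 0.00 ± 0.19). Of 12 other slow fibre genes, 4 rose and 2 fell against Ctrl, and 4 rose and 3 fell against OVA. PLN, one of those that rose, passed the filter only through the EAE mice (3.27 RPKM, against 1.98 in Ctrl and 1.98 in OVA mice). ANKRD2, a stretch-responsive ankyrin repeat protein, rose by 2.78 ± 0.36 against Ctrl (adjusted p = 2.46e-05, limma) and CSRP3, the muscle LIM protein, by 1.92 ± 0.47 (adjusted p = 0.00386). MYL3, the slow essential light chain, fell by 1.67 ± 0.23 (adjusted p = 5.30e-05, limma) and MYL2, the slow regulatory light chain, by 0.79 ± 0.19 (adjusted p = 0.00369). MYH7, the slow myosin heavy chain, had a log2 fold change of -0.19 ± 0.20 (adjusted p = 0.465, limma). The median log2 fold change was -0.23 for the fast and 0.18 for the slow list.

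Genes known to respond to denervation were higher in EAE mice of day 14, 10 of 10 tested against either control, with a median of 2.73 against Ctrl. Among them was MYOG, the myogenic factor myogenin (4.10 ± 0.36, adjusted p = 1.28e-06, limma). Of the 10, 4 had a mean above 3 RPKM in Ctrl mice and 5 in OVA mice. The others passed the filter only through the EAE mice. Of 10 tested regulators of fibre type, MEF2C, SIX4 and SOX6 rose against Ctrl and MEF2C alone against OVA. Of 5 tested developmental and cardiac sarcomere genes, MYL4, an atrial and embryonic light chain, rose (1.16 ± 0.26, adjusted p = 0.00181, limma) and ACTC1 fell against either control. No gene of these lists was called between OVA and Ctrl mice on day 14 or in any comparison of day 40.

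**Figure D5:**
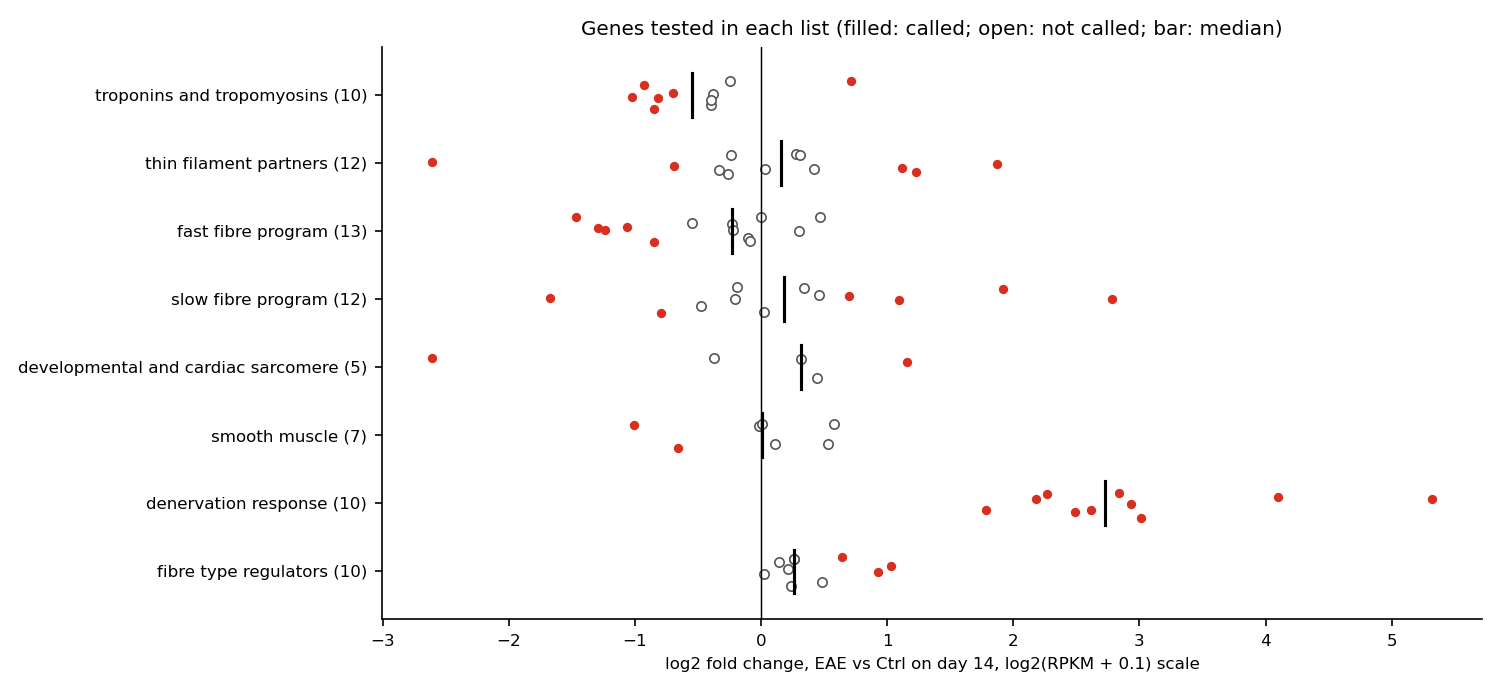
Log2 fold change of EAE vs Ctrl on day 14 (x axis, log2(RPKM + 0.1) scale) for the tested genes of each list (y axis, number tested in brackets); filled points are called, open points are not, and bars are medians. The troponins and tropomyosins have a median of -0.55, the fast list -0.23, the slow list 0.18 and the denervation list 2.73.

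Markers of other cells were measured beside these changes. For the rise of TNNT2, the summed cardiac markers ran from 33.2 to 45.6 RPKM in Ctrl and from 25.1 to 39.8 in EAE mice on day 14, and 1 of 7, MYH6, exceeded 3 RPKM. NPPB was at 0 in 20 of the 30 mice, MYL7 in 20 and MYBPC3 in 12, and the highest value of NPPA was 0.566 RPKM. The 3 tested markers of satellite cells and myoblasts, MYOD1, CDH15 and MYOG, all rose against Ctrl and against OVA, and the sum of the 6 in the table ran from 31.1 to 42.5 RPKM in Ctrl and from 107 to 489 in EAE mice. MYOG is also counted among the denervation genes above. It had the highest mean of the tested markers in EAE mice, at 207 RPKM, against 67.9 for MYOD1 and 17.7 for CDH15. The part of satellite cells and myoblasts in the rise of TNNT2 was not tested. For the fall of the tropomyosins, which other cells also make, the summed smooth muscle markers ran from 169 to 234 RPKM in Ctrl and from 182 to 224 in EAE mice, with 0 of 7 tested called higher and 2 called lower. In OVA mice this sum ran from 226 to 339 RPKM, above every EAE mouse. Fibroblast markers fell in 6 of 7 against Ctrl and in 5 of 7 against OVA (summed 870.3 to 1425 RPKM in Ctrl, 316 to 502 in EAE), and macrophage markers in 4 of 7 and 5 of 7 (271 to 409 and 129 to 292). Erythrocyte markers fell in 4 of 4 tested (189 to 684 and 26.5 to 189). The part of these cells in the fall was not tested. The fast fibre markers summed to 46563 to 58897 RPKM in Ctrl and 33421 to 44315 in EAE mice, and the slow fibre markers to 3593 to 5039.6 and 3051 to 6591, so the muscle was mostly fast by its markers in every group.

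For each called member, the genes with the most similar course over the 30 mice were taken from 9049 genes, by the root mean square difference (RMS) on the log2 scale after subtracting the Ctrl mean of the same day. The RMS is a description, and the 30 mice share their library scaling. TNNC2 was closest to NDUFA13 (RMS 0.09), NDUFB7 (0.11) and MRPL28 (0.11), a pair of respiratory complex I subunits and a mitochondrial ribosomal protein. TNNC1 and TPM3 were both closest to MYL2, at 0.18 and 0.17, followed by COX5B (0.27) and S100A10 (0.30) for TNNC1 and by DOLPP1 (0.23) and MTX1 (0.24) for TPM3. TPM1 was close to KCTD2 and TCEA3 (0.13 each) and TPM2 to MRPS9, ADSSL1 and BSG (0.11 each). TNNT2, the only member that rose, was closest to the proteasome subunits PSMB1 (0.20) and PSMB7 (0.21).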

How the data were processed

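EDL muscle of 30 mice in 6 groups of 5 was compared. The authors sequenced strand-specific poly(A) libraries, mapped them with Subread (mm10), counted reads per RefSeq gene with featureCounts and scaled the counts to RPKM. What the authors deposited is 1 table of 21073 genes whose values are log2(RPKM + 1): with this scale 86.7% of 2942 low values are whole multiples of 1 read (tolerance 0.1 read), against 54.3% if read as RPKM. Values of 0.0001 (25.8%) stand for no read, and 27 symbols had turned into dates and were named by Entrez identifier. All columns were mapped by title.

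Values were converted to RPKM and compared with limma 3.58.1 (R 4.3.3; lmFit and eBayes with a trend) after adding 0.1 RPKM and taking log2. Each day had its own model of 15 mice, for genes above a mean of 3 RPKM in at least 1 compared group. The authors' own tests (EdgeR) need counts, so they were not repeated. A difference of effects between days was tested in a model of all mice and called on the adjusted p alone. Ratios were compared by two-sided exact permutation tests (scipy 1.17.1), adjusted over 18. The limma p-values set a group difference against the spread between mice within groups, pooled over the groups of a model and moderated across genes. The permutation p-values set it against all regroupings of the same mice. The methods were tested on simulated data.

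The members and lists were chosen with earlier results of these data known. Named genes are the 10 members, the list genes with the largest log2 fold changes, and the 3 genes most like each called member. Some genes that this rule names are not reported here. Genes named beyond these, among them MYH4, MYH7, MYL2, ACTA1, TPM4 and TNNI3, were chosen from the same lists after their values were seen. Alternatives varied the pseudocount, filter, scaling, model, replicate block and mice.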

Additional observations from a re-analysis of the deposited data

Results flagged for a closer look

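In 10 of 60 sets of 5 values, each a member in a group, 1 mouse stood far from the other 4. Chance gives about 1 in 20 per set. The 10 genes of a group come from the same 5 mice, so the sets are not independent. The count therefore cannot be set against that share. Ctrl replicate 1 of day 14 accounted for TNNT1 (692 RPKM, next 453), TNNT2 (18.0, next 11.7), TNNC1 (781, next 459), TPM2 (6446, next 5050.4) and TPM3 (131, next 101). EAE replicate 5 of day 40 accounted for the slow forms TNNT1 (744 RPKM, next 452), TNNI1 (277, next 167), TNNC1 (604, next 351) and TPM3 (164, next 105). OVA replicate 5 of day 14 accounted for TNNI1 (262 RPKM, next 173).

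The effect of EAE differed between the days in 12 tests, all with a higher log2 fold change on day 40 than on day 14 (limma interaction). Against Ctrl mice the differences were 0.63 for TNNT3, 0.71 for TNNI2, 1.08 for TNNC1, 1.23 for TNNC2, 1.02 for TPM1, 1.01 for TPM2 and 0.88 for TPM3. Against OVA mice they were 1.19 for TNNC1, 0.91 for TNNC2, 0.74 for TPM1, 0.82 for TPM2 and 0.91 for TPM3.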

How the results depend on the processing

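Between EAE and Ctrl mice on day 14 the count of 6 called members was 6 with each mouse left out in turn and 4 under quantile normalization, which lost TNNC2 and TPM2. Between EAE and OVA mice the count of 5 ranged from 3 to 6 with single mice left out, and was 3 under quantile normalization (TNNC2 and TPM2 lost), 4 with no filter on low values (TNNC2 lost) and 6 with no fold threshold (TPM1 gained). The 7 and 5 members whose effect differed between days became 5 (TNNT3 and TNNI2 lost) and 4 (TNNC2 lost) with no filter, and 5 (TNNT3 and TNNI2 lost) and 4 (TPM1 lost) under quantile normalization. The causes were not tested, except that no fold threshold admits smaller changes by its construction.

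With a replicate block the 8 counts were 6, 5, 0, 0, 0, 0, 7 and 5 as without it. The correlation of the deviations of same-numbered mice ran from -0.71 to 0.69. For replicate 1 of day 14 it was 0.50 (EAE and Ctrl), 0.69 (EAE and OVA) and 0.61 (OVA and Ctrl), so these mice deviated together. In all other pairs it ran from -0.71 to 0.42. The labels name no batch that these mice share, and a shared batch was not tested. The main models took the numbers as names only.

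Quantile normalization reversed these log2 fold changes of genes that were not called: in EAE vs Ctrl on day 14 TNNT3 (0.03) and TNNI2 (0.05); in EAE vs OVA on day 14 TNNT3 (0.09) and TNNI2 (0.18); in OVA vs Ctrl on day 14 TNNT1 (0.00); in EAE vs Ctrl on day 40 TNNT1 (-0.05), TNNI1 (-0.02), TNNC1 (-0.06), TPM1 (-0.02) and TPM3 (-0.05); in EAE vs OVA on day 40 TPM1 (0.00); and in OVA vs Ctrl on day 40 TNNT3 (-0.06). Median-of-ratios scaling reversed TNNT2 (0.01) in OVA vs Ctrl on day 14 and TPM1 (0.01) in OVA vs Ctrl on day 40.

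With single mice left out, these values that were not called crossed 0. In EAE vs Ctrl on day 40 TNNC1 ranged from -0.14 to 0.24, TNNI1 from -0.12 to 0.25, TNNT1 from -0.10 to 0.22 and TPM3 from -0.13 to 0.13. In OVA vs Ctrl on day 14 TNNC1 ranged from -0.23 to 0.09, TNNI1 from -0.18 to 0.11, TNNT1 from -0.17 to 0.09 and TNNT2 from -0.20 to 0.16. In OVA vs Ctrl on day 40 TNNC2 ranged from -0.04 to 0.15, TNNI1 from -0.37 to 0.00, TNNI2 from -0.06 to 0.10, TNNT2 from -0.16 to 0.10, TNNT3 from -0.03 to 0.09 and TPM1 from -0.08 to 0.04. Of the slow to fast log2 ratios, TNNC1 to TNNC2 in EAE vs OVA on day 40 ranged from -0.18 to 0.12, TNNI1 to TNNI2 in EAE vs OVA from -0.21 to 0.05 on day 14 and from -0.21 to 0.07 on day 40, and TNNT1 to TNNT3 from -0.03 to 0.13 in EAE vs Ctrl on day 14 and from -0.12 to 0.14 in EAE vs OVA on day 40.

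Over all genes, the number called in EAE vs Ctrl on day 14 went from 2318 to 3578 with no filter and 4195 with no fold threshold, and in EAE vs OVA from 1762 to 3390 with no fold threshold. In OVA vs Ctrl on day 14 it went from 12 to 37 with no filter, 7 with only the compared groups in the model and 36 with all 30 mice. In EAE vs Ctrl on day 40 it went from 40 to 15 with a pseudocount of 1, 229 with no fold threshold, 6 with only the compared groups, 0 with all 30 mice, 21 with median-of-ratios scaling, 10 with quantile normalization and 1 with the replicate block. In EAE vs OVA on day 40 it went from 18 to 8 with a pseudocount of 1, 3 with no filter, 55 with no fold threshold, 1 with all 30 mice, 2 with either other scaling and 0 with the replicate block, and in OVA vs Ctrl on day 40 from 0 to 1 with only the compared groups. Of the calls in EAE vs Ctrl on day 40, 15.0% were higher, against 47.6% under median-of-ratios scaling and 5 of 10 under quantile normalization. In EAE vs OVA on day 40 the share was 16.7%, against 0 of 2 under both, and in OVA vs Ctrl on day 14 66.7%, against 9 of 18 under quantile normalization. The share of positive differences among calls between days went from 33.9% to 46.0% and 48.5% against Ctrl and from 31.6% to 47.9% and 51.1% against OVA under median-of-ratios and quantile scaling, as the median of all genes moved from -0.15 and -0.16 to between -0.04 and -0.01. Depth limits TNNT2 most, at 6.94 to 22.4 RPKM.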
